A study of Mus musculus with 30 samples.

Results

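Livers of mice given aspirin with clopidogrel were compared with livers of vehicle mice that had developed hepatocellular carcinoma (HCC). Arrays were chosen by their labels alone, and 10 of the 30 arrays of the series entered the comparison, 1 array per mouse. The drug group held 6 mice on CD-HFD, a diet rich in fat and lacking choline that models steatohepatitis leading to HCC, and these mice received aspirin together with clopidogrel as prophylaxis. The vehicle group held 4 mice on the same diet that received vehicle and developed both HCC and fibrosis. In both groups the RNA came from fresh-frozen liver outside tumours. The vehicle mice of this group were therefore selected by their outcome, whereas the labels of the drug mice state no HCC or fibrosis status, so that a drug difference and an outcome difference cannot be told apart here. The labels give no strain, sex, age, dose, duration, collection time or batch for any mouse. The other 20 arrays came from healthy mice on chow (5), vehicle mice on CD-HFD without HCC (5) and sulindac mice on CD-HFD (10), and they served for the estimate of the spread and as values set alongside.

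Aspirin acetylates cyclooxygenases and so stops the synthesis of thromboxane by platelets, while clopidogrel is a prodrug whose active metabolite blocks P2Y12, the platelet receptor for ADP. Platelets enter the sinusoids of fatty, inflamed liver and bind to Kupffer cells and endothelium there. In fatty hepatocytes the nuclear receptor PPAR-gamma drives genes of lipid uptake and lipid droplet growth, and the temporal pattern of growth hormone secretion sets a large group of liver genes at different levels in male and female mice.

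The 30 array medians ran from an intensity of 24.1 to 24.6, and Pearson correlations between pairs of the 10 arrays across probe sets lay between 0.982 and 0.995. Levels below are log2 intensity, and differences are the drug mean minus the vehicle mean on that scale, with the standard error (SE) of the fit. A level belongs to 1 probe set and was not compared between genes. Markers of hepatocytes were high in every liver. The mean level of the 15 measured hepatocyte markers, which include albumin (Alb), transthyretin (Ttr) and apolipoprotein A-I (Apoa1), lay between 12.71 and 12.83 in drug mice and between 12.65 and 12.74 in vehicle mice, and none of them passed the test.

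The 6 drug mice did not carry one pattern of sex-chromosome genes. Xist, the long RNA that coats the inactive X chromosome of female cells, stood at 10.95 in AspClo_58, 11.21 in AspClo_61, 11.08 in AspClo_63 and 11.01 in AspClo_64, but at 4.79 in AspClo_60 and 4.56 in AspClo_62. The 4 vehicle mice with HCC lay between 4.61 and 5.03, and no mouse of the other 3 groups exceeded 4.98. Eif2s3y, a translation factor gene on the Y chromosome, was at 4.14, 5.17, 4.59 and 5.21 in the same 4 drug mice in that order, at 9.09 in AspClo_60, at 9.11 in AspClo_62 and no lower than 8.38 in any vehicle mouse. The Y-linked genes Kdm5d and Uty, 2 histone demethylase genes, followed the same mice. Kdm5d averaged 5.21 ± 0.84 (SD, n = 6) in drug mice and 6.29 ± 0.10 (n = 4) in vehicle mice, a difference of -1.08 (SE 0.245, limma adjusted p = 0.0361), and Uty averaged 4.93 ± 0.60 and 5.78 ± 0.33, a difference of -0.86 (SE 0.203, limma adjusted p = 0.041). AspClo_58, AspClo_61, AspClo_63 and AspClo_64 thus showed the female pattern of these genes, and AspClo_60, AspClo_62 and all vehicle mice the male pattern. Sex is not in the labels, and in those 4 mice it cannot be told apart from treatment. Results below are therefore also given for AspClo_60 and AspClo_62, for many genes and for the lists. They are given by the mice's own values, or as the difference or list median without the other 4 drug mice. Where neither is printed for a gene, the part of those 4 mice in its difference is not shown. Eif2s3y, Kdm5d and Uty were chosen after their values were seen.

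Of 17097 genes tested, 157 passed an adjusted p of 0.05 in limma, which is 0.918% of all genes. Of these, 82 were higher in drug mice (0.480%) and 75 were lower (0.439%). All 6 drug mice lay outside the range of the 4 vehicle mice for 104 of the 157, 52 in each direction, against 3.49% of all genes without overlap (1.85% higher and 1.64% lower). AspClo_60 and AspClo_62 both lay outside the vehicle range for 113 of the 157. For 56 of the 157, the other 4 drug mice all lay beyond AspClo_60, AspClo_62 and every vehicle mouse. The counts of 113 and 56 cover only genes already called from the same arrays. Their shares over all genes were not computed, so they describe the called genes and test nothing. At an unadjusted p of 0.05, 2198 genes (12.9%) passed, 1250 higher (7.31%) and 948 lower (5.54%). Over all 17097 genes, 8996 differences were positive and 8101 negative, and 8569 were positive without the 4 drug mice of the female pattern. The counts of list members below are to be read beside these. Repeating quantile normalization gave 72 higher and 101 lower, so the balance of higher to lower depended on the scaling. The count depended on single mice, and also on which arrays of the other groups were in the fit, as given in the last section. Of the 44 named genes that passed, Pparg and Fitm1 kept the call whichever 1 mouse was left out, and each of the other 42 lost it without at least 1 mouse. The count of all genes fell to 12 without Veh_high_2088, 15 without Veh_high_1831, 20 without AspClo_61, 26 without AspClo_58, 42 without Veh_high_1770, and 54 without AspClo_63 or without AspClo_64, and it rose to 248 without AspClo_62. Without the 4 drug mice of the female pattern, 24 genes passed, 7 of which were among the 157, and without AspClo_60 and AspClo_62, 411 passed, 136 of which were among the 157.

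**Figure D1:**
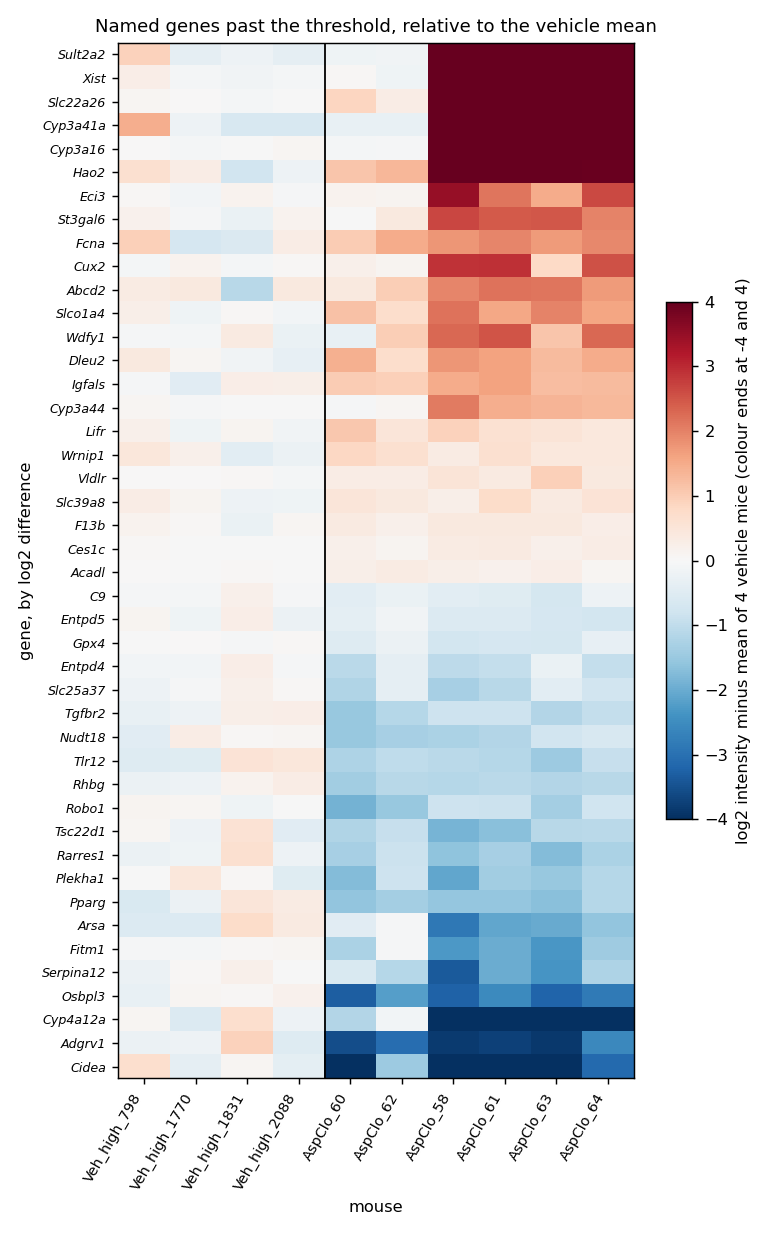
Log2 intensity minus the mean of the 4 vehicle mice for the 44 named genes that passed the test, with 1 column per mouse and genes ordered by their difference, and colour ending at -4 and 4. Osbpl3, Adgrv1, Pparg and Rhbg were low in all 6 drug mice, whereas Sult2a2, Xist, Cyp3a41a and Cyp3a16 were high in AspClo_58, AspClo_61, AspClo_63 and AspClo_64 and not in AspClo_60 or AspClo_62.

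The largest increases were in Xist and in genes that female mouse liver expresses more than male liver. Sult2a2, a sulfotransferase of steroids and bile acids, was at 12.44 in AspClo_58, 12.24 in AspClo_61, 12.20 in AspClo_63 and 12.20 in AspClo_64, and at 4.39 in AspClo_60 and 4.43 in AspClo_62. Its vehicle values were 5.49, 4.21, 4.36 and 4.22, so that the drug mice of the male pattern sat within the vehicle range. The difference was 5.08 (SE 1.13, limma adjusted p = 0.0336). Xist itself differed by 4.19 (SE 0.913, limma adjusted p = 0.0311). Cyp3a41a and Cyp3a16, female-predominant cytochrome P450 enzymes of the 3A family, differed by 3.81 (SE 0.912, limma adjusted p = 0.0424) and 3.39 (SE 0.751, limma adjusted p = 0.0333) and also lay within or beside the vehicle range in AspClo_60 and AspClo_62. Cyp3a44, a close relative, differed by 1.04 (SE 0.237, limma adjusted p = 0.0361). Without the 4 mice of the female pattern, the differences of these genes were -0.16 for Sult2a2, -0.07 for Xist, -0.29 for Cyp3a41a, -0.06 for Cyp3a16 and 0.02 for Cyp3a44, and none passed. Of the 10 mice, leaving out any 1 of Veh_high_1770, Veh_high_1831, Veh_high_2088 or those 4 drug mice also ended the call of Sult2a2 and Xist, with an adjusted p of at most 0.0946.

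**Figure D2:**
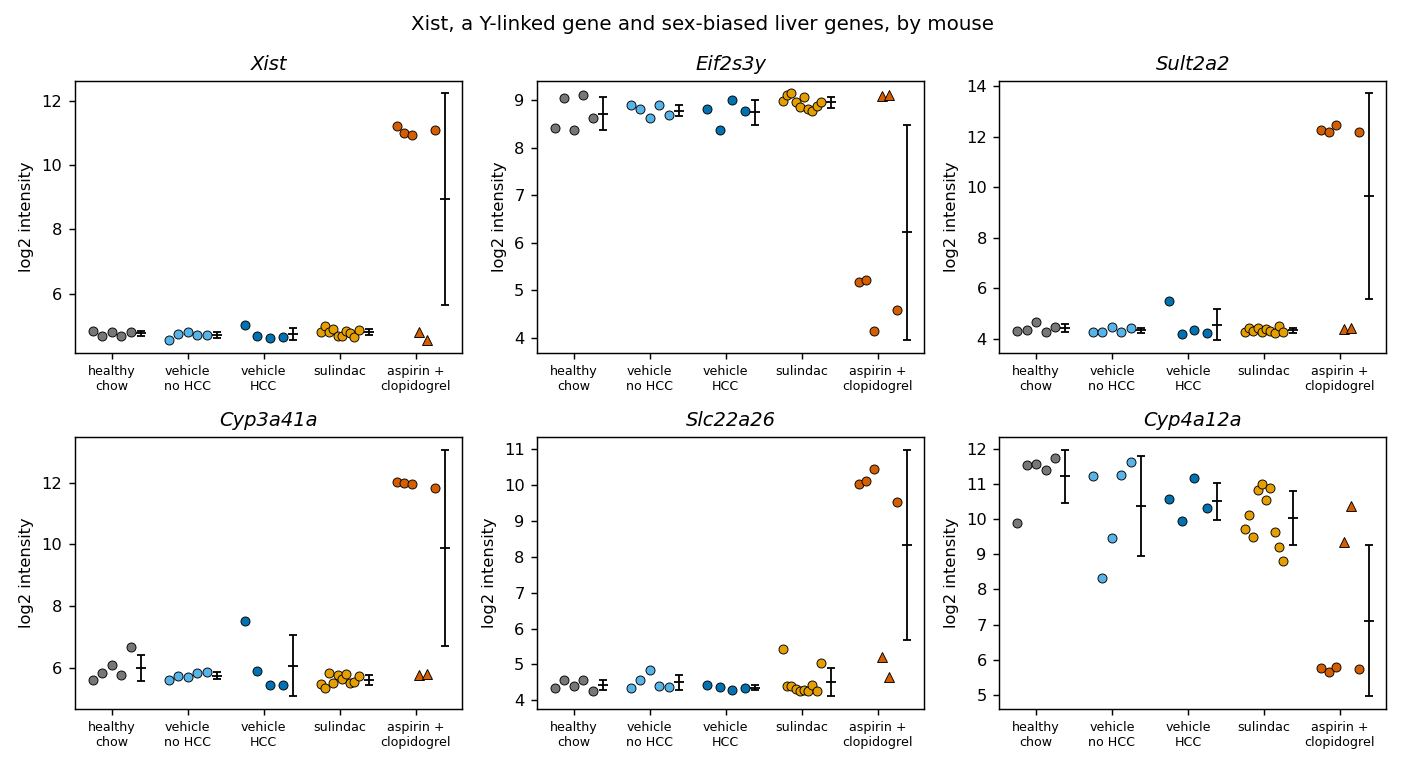
Log2 intensity of 6 genes in every mouse of the 5 groups, 1 point per mouse with the group mean ± SD, and triangles for AspClo_60 and AspClo_62. Sult2a2 was at or above 12.20 in 4 drug mice and at or below 5.49 in all other mice, and Cyp4a12a was between 5.66 and 5.78 in the same 4 mice.

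Other female-biased genes rose to different extents. Slc22a26, an organic anion transporter gene, was at 10.45, 10.04, 9.54 and 10.12 in AspClo_58, AspClo_61, AspClo_63 and AspClo_64, at 5.21 in AspClo_60 and at 4.66 in AspClo_62, against 4.28 to 4.44 in vehicle mice. No drug mouse overlapped the vehicle mice with HCC, although sulindac mice reached 5.43, above AspClo_60. The difference was 3.98 (SE 0.751, limma adjusted p = 0.0152). Hao2, a peroxisomal hydroxy acid oxidase, ranged from 7.76 in AspClo_60 to 11.23 in AspClo_58 (median 10.75), and vehicle mice from 5.90 to 7.30. All 6 drug mice lay above all 4 vehicle mice, with a difference of 3.30 (SE 0.657, limma adjusted p = 0.0217), and of 1.23 (adjusted p = 0.574) without the 4 mice. Abcd2, a peroxisomal transporter of very long-chain fatty acids, differed by 1.56 (SE 0.362, limma adjusted p = 0.0362), and Cux2, a repressor of male-biased genes that is found in female liver, by 1.58 (SE 0.381, limma adjusted p = 0.0425). Cux2 was at 4.70 in AspClo_60 and 4.61 in AspClo_62, against 4.41 to 4.63 in vehicle mice, and without the 4 mice the differences were 0.15 for Cux2 (adjusted p = 0.631) and 0.69 for Abcd2 (adjusted p = 0.645). Of 19 measured genes in a list of female-biased liver genes, 7 rose and none fell past the threshold, and the median difference was 1.56 against 0.01 over all genes. The median was 0.08 without the 4 mice. Of 17 male-biased genes, Cyp4a12a, a fatty acid hydroxylase of male liver, was the 1 that passed. It fell by 3.39 (SE 0.778, limma adjusted p = 0.0361), from 9.94 to 11.18 in vehicle mice to 5.66 to 5.78 in AspClo_58, AspClo_61, AspClo_63 and AspClo_64, with 9.34 in AspClo_60 and 10.38 in AspClo_62. The median of the male-biased list was -0.35, and 0.11 without the 4 mice. The call of Slc22a26 ended without Veh_high_1831 or Veh_high_2088 (adjusted p at most 0.0551), and those of Hao2, Abcd2, Cux2 and Cyp4a12a without any 1 of 4 to 8 mice (at most 0.169).

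Sequence before the start sites was read for the female-biased and growth hormone genes that passed, because STAT5 and HNF6 (Onecut1) are the factors through which growth hormone acts on such genes. The windows hold the 250 bases before each start site from RefSeq on GRCm38.p6, on the strand of the gene. The letters searched were TTCNNNGAA, a core of the STAT motif, and ATTGAT, a core of the HNF6 motif, on both strands. The former was in 7.02% and the latter in 6.72% of all 32851 windows of that length. Of 7 female-biased genes that passed, 6 had a window, and ATTGAT was in 4 of them (Cyp3a16, Cyp3a41a, Cyp3a44 and Slc22a26). The 3 Cyp3a windows are near copies of each other, so their matches are not independent. Cyp3a41a and Cyp3a44 are shown as an example of such copies, with the match in capitals (ATTGAT on the opposite strand, first base at -71 from the start site in both), at chr5:145720137-145720386 and chr5:145805875-145806124 on the minus strand. These windows were identical at 236 of 250 positions (94.4%), and the Cyp3a16 window, shifted by 4 bases, was identical to that of Cyp3a41a at 231 of 246 positions (93.9%) and to that of Cyp3a44 at 236 of 246 (95.9%).
Cyp3a41a: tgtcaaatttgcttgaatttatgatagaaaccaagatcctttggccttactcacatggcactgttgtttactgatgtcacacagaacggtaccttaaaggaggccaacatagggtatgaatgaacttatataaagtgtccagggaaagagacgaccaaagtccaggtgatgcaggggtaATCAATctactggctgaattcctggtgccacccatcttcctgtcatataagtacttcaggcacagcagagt
Cyp3a44: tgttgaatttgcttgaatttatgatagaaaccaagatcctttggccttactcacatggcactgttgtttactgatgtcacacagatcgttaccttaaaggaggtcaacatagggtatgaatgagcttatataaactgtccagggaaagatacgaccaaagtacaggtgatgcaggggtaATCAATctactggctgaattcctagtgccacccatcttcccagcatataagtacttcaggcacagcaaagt
Only sequence before the start sites was compared. Whether the array signals of these Cyp3a genes include each other's transcripts was not tested, so the levels of single Cyp3a genes are uncertain. TTCNNNGAA was in the window of 1 of the 6 female-biased genes, Slc22a26 (chr19:7802668-7802917, minus strand, first base at -141). It was also in the window of 1 of 3 growth hormone genes, Igfals (chr17:24877594-24877843, plus strand, first base at -236). Both are shown with the match in capitals, since the first was high mainly in the 4 mice and the second was higher in all 6 drug mice.
Slc22a26: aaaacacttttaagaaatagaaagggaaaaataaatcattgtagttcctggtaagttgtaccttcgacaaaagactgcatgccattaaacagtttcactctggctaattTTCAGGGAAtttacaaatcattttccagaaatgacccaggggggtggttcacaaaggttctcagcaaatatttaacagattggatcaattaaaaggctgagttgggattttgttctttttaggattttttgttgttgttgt
Igfals: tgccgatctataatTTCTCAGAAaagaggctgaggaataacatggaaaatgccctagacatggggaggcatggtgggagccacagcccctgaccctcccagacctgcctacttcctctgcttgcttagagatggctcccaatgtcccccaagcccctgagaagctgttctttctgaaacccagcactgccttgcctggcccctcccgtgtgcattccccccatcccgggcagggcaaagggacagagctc
A match is a run of letters and not a measured binding site.

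Among genes of the growth hormone and insulin-like growth factor axis, 3 of 20 measured rose and none fell, with a median of 0.06 both with and without the 4 mice of the female pattern. Igfals encodes the acid-labile subunit, which holds IGF-1 in its circulating complex. It was at 9.64 in AspClo_62, the lowest drug mouse, and at 10.30 in AspClo_61, the highest (median 9.95), against 8.65, 8.23, 8.97 and 8.94 in vehicle mice. Every drug mouse was above every vehicle mouse, the drug mean was 9.96 ± 0.26 (SD, n = 6) and the vehicle mean 8.70 ± 0.34 (n = 4), and the difference was 1.26 (SE 0.287, limma adjusted p = 0.0361). The difference was 0.98 (adjusted p = 0.386) without the 4 mice. Lifr, a receptor for leukaemia inhibitory factor, lay between 10.38 and 11.04 in drug mice and between 9.80 and 10.15 in vehicle mice, a difference of 0.67 (SE 0.167, limma adjusted p = 0.0463). AspClo_60 had the highest Lifr of all 10 mice. Cux2, which followed the 4 mice of the female pattern, was the third. Igf1, the hormone itself, differed by 0.14 (limma adjusted p = 0.366). Socs2, a feedback inhibitor that growth hormone induces, did not pass (limma adjusted p = 0.138), with 8.21 to 10.21 in drug mice and 6.88 to 8.11 in vehicle mice. Socs2 and Igf1 were chosen after their values were seen. Leaving out any 1 of Veh_high_798, Veh_high_1770, Veh_high_1831, Veh_high_2088, AspClo_58, AspClo_61, AspClo_63 or AspClo_64 ended the call of Igfals (adjusted p at most 0.118).

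Pparg and 2 genes of lipid droplets fell in drug mice. Pparg, the nuclear receptor of fat storage, was at 6.27 in AspClo_58, 6.23 in AspClo_60, 6.25 in AspClo_61, 6.44 in AspClo_62, 6.14 in AspClo_63 and 6.66 in AspClo_64, and at 7.21, 7.59, 8.31 and 8.14 in vehicle mice. The highest drug mouse was below the lowest vehicle mouse, and drug mice of both sex-gene patterns lay close together. The drug mean was 6.33 ± 0.19 (SD, n = 6) and the vehicle mean 7.81 ± 0.51 (n = 4), a 2.79-fold difference, or -1.48 (SE 0.21, limma adjusted p = 0.00222). It was -1.47 (adjusted p = 0.0416) without the 4 mice of the female pattern, and its adjusted p was at most 0.0143 when any 1 mouse was left out. Without both Veh_high_1831 and Veh_high_2088, the pair of vehicle mice with the highest Pparg, it was -1.06 (adjusted p = 0.188).

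Cidea, which fuses lipid droplets and is a target of PPAR-gamma in fatty liver, was at 5.17 in AspClo_58, 4.86 in AspClo_60, 4.84 in AspClo_61, 7.98 in AspClo_62, 5.20 in AspClo_63 and 6.32 in AspClo_64, and between 9.04 and 10.11 in vehicle mice. The groups did not overlap, and AspClo_62 came closest to the vehicle mice. The drug mean was 13.1-fold below the vehicle mean, a difference of -3.71 (SE 0.849, limma adjusted p = 0.0361), and of -3.02 (adjusted p = 0.368) without the 4 mice. Fitm1, which helps to form lipid droplets at the endoplasmic reticulum, was at 7.43, 8.44, 7.75, 9.67, 7.40 and 8.28 in AspClo_58, AspClo_60, AspClo_61, AspClo_62, AspClo_63 and AspClo_64, and between 9.64 and 9.79 in vehicle mice. AspClo_62 lay within the vehicle range and the other 5 below it. Fitm1 fell by 1.55 (SE 0.263, limma adjusted p = 0.00856), with an adjusted p of at most 0.0393 when any 1 mouse was left out, and its difference was -0.66 (adjusted p = 0.281) without the 4 mice. Pparg and Fitm1 were the 2 of 44 named genes that passed whichever single mouse was left out. For Cidea, leaving out any mouse other than AspClo_62 ended the call, with an adjusted p of at most 0.096.

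Of 24 measured lipid droplet genes, 19 had a negative difference and 2 passed, Cidea and Fitm1, with a median of -0.18, and of -0.15 without the 4 mice. The mean level of the list lay between 8.12 and 8.63 in drug mice and between 8.67 and 8.91 in vehicle mice. Plin2, the most widespread droplet coat protein, differed by -0.31 (limma adjusted p = 0.223), and Plin4 by -1.25 (limma adjusted p = 0.311). Of 17 genes in the list of PPAR-gamma and lipid uptake, Pparg and Cidea fell and Vldlr, the receptor for very low-density lipoprotein, rose by 0.47 (SE 0.103, limma adjusted p = 0.0316). The median of that list was -0.13, and -0.58 without the 4 mice. Vldlr lay between 4.96 and 5.61 in drug mice and between 4.59 and 4.70 in vehicle mice. Its difference was 0.30 (limma adjusted p = 0.341) without the 4 mice. Mogat1, an acyltransferase of triglyceride synthesis, was between 4.36 and 5.32 in drug mice and between 5.68 and 6.68 in vehicle mice, without overlap, and did not pass (difference -1.40, SE 0.379, limma adjusted p = 0.071). Plin2, Plin4 and Mogat1 were chosen after their values were seen. Markers of adipose tissue were measured alongside. Of 14, Cidea passed, and their median was -0.06, and -0.08 without the 4 mice.

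**Figure D3:**
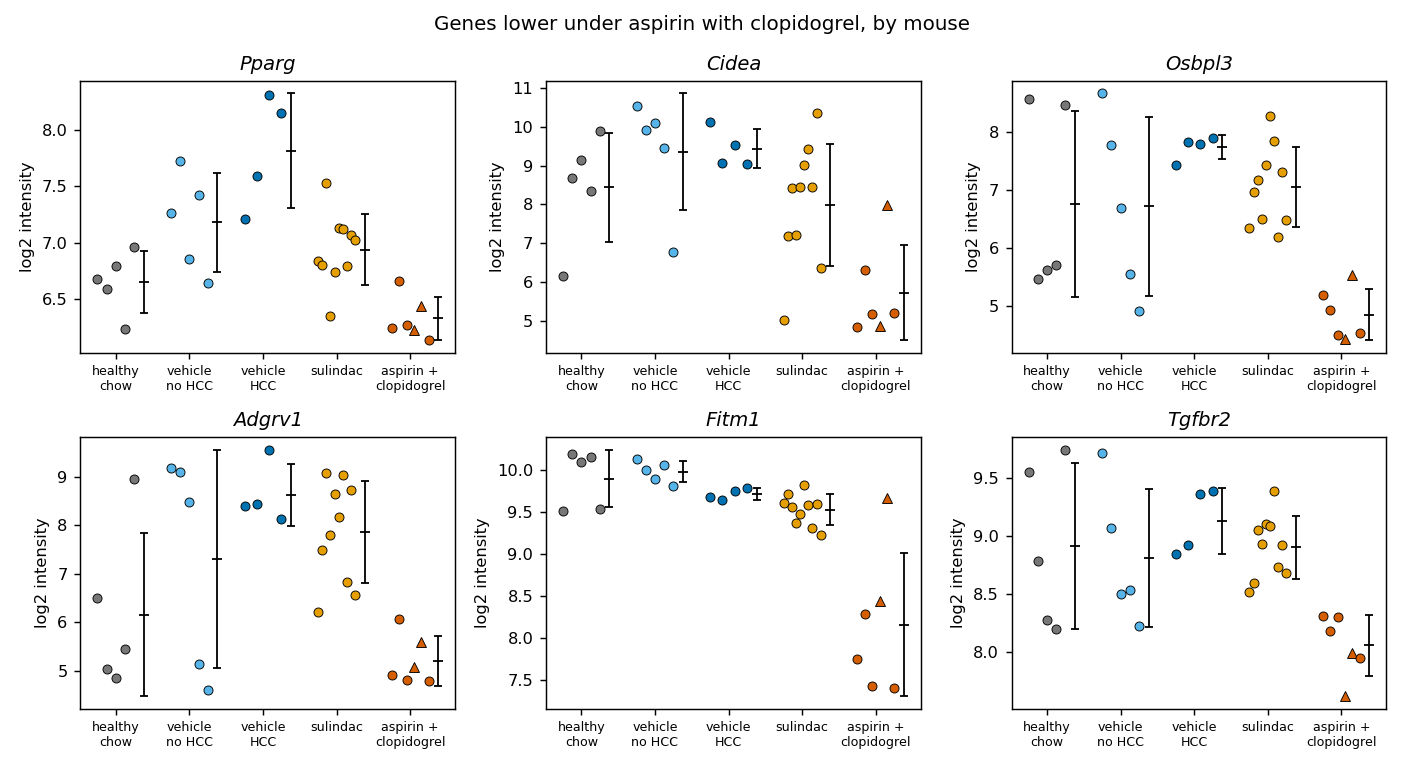
Log2 intensity of 6 genes that were lower under aspirin with clopidogrel, in every mouse of the 5 groups, with the group mean ± SD and triangles for AspClo_60 and AspClo_62. Pparg lay between 6.14 and 6.66 in drug mice and between 7.21 and 8.31 in vehicle mice with HCC, and the vehicle mice without HCC spread from 4.91 to 8.66 for Osbpl3.

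Several further genes fell in all 6 drug mice. Osbpl3, a lipid-binding protein of the oxysterol-binding family, was between 4.43 and 5.53 (median 4.73) in drug mice, with 4.43 in AspClo_60 and 5.53 in AspClo_62, and at 7.43, 7.83, 7.79 and 7.89 in vehicle mice. The gap between the groups was wider than the range of either, and the difference was -2.88 (SE 0.619, limma adjusted p = 0.0278). Adgrv1, a very large adhesion G protein-coupled receptor, was between 4.78 and 6.07 in drug mice and between 8.12 and 9.56 in vehicle mice, a difference of -3.42 (SE 0.818, limma adjusted p = 0.0424). Both were about as far below the vehicle mice without the 4 mice of the female pattern, with differences of -2.75 for Osbpl3 and -3.30 for Adgrv1, although with 2 drug mice neither passed (adjusted p = 0.242 and 0.299). In the vehicle mice without HCC, Osbpl3 spanned 4.91 to 8.66 and Adgrv1 4.61 to 9.19, and drug mice did not pass against that group (limma adjusted p = 0.108 and 0.191). The low values of that group came from Veh_low_794 and Veh_low_1819, at 5.54 and 4.91 for Osbpl3 and 5.14 and 4.61 for Adgrv1. Its other mice lay at or above 6.68 and 8.48. Among chow mice, Hlth_1807 was high for both genes (8.46 and 8.95) and Hlth_1798 for Osbpl3 (8.555). The cause of this split was not tested. Against sulindac the difference was -2.20 for Osbpl3 (limma adjusted p = 0.0292) and -2.65 for Adgrv1 (limma adjusted p = 0.0464). The call of Osbpl3 ended without any 1 of 6 mice (adjusted p at most 0.0897) and that of Adgrv1 without any mouse but AspClo_62 (at most 0.146).

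Serpina12, which encodes the secreted protease inhibitor vaspin, ranged from 7.92 in AspClo_58 to 10.66 in AspClo_60, and from 11.03 to 11.48 in vehicle mice. It fell by 1.78 (SE 0.399, limma adjusted p = 0.036), and by 0.88 (adjusted p = 0.484) without the 4 mice. Arsa, the lysosomal sulfatase of sulfatides, overlapped between groups. It was at 8.62 in AspClo_60 and 9.04 in AspClo_62, within the vehicle range of 8.53 to 9.80, and between 6.21 and 7.49 in the other drug mice (difference -1.51, SE 0.37, limma adjusted p = 0.0447). Rarres1, named for its response to retinoic acid receptors, fell by 1.36 (SE 0.271, limma adjusted p = 0.0217), and Tsc22d1, a leucine zipper protein induced by TGF-beta, fell by 1.31 (SE 0.246, limma adjusted p = 0.0152). Plekha1, a phosphoinositide-binding adaptor, fell by 1.45 (SE 0.365, limma adjusted p = 0.0496), and Nudt18, which hydrolyses oxidised nucleotides, by 1.11 (SE 0.276, limma adjusted p = 0.0482). None of these last 4 genes overlapped between the groups. Their differences without the 4 mice of the female pattern were -1.102, -1.065, -1.279 and -1.420 in that order. In that fit none of them passed (limma adjusted p at least 0.13). The call of Tsc22d1 ended without Veh_high_1831 (adjusted p = 0.088), that of Rarres1 without Veh_high_1831, Veh_high_2088, AspClo_58 or AspClo_61 (at most 0.0946), and those of Serpina12, Arsa, Plekha1 and Nudt18 without any 1 of 6 to 9 mice (at most 0.183).

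A further set was lower in drug mice than in vehicle mice with HCC, while no difference from vehicle mice without HCC was detected. Robo1, a receptor for SLIT guidance ligands, was at 5.87 in AspClo_58, 4.79 in AspClo_60, 5.82 in AspClo_61, 5.18 in AspClo_62, 5.32 in AspClo_63 and 5.91 in AspClo_64, and between 6.53 and 6.80 in vehicle mice with HCC. The 2 mice of the male pattern were the lowest, and the difference was -1.21 (SE 0.253, limma adjusted p = 0.0224), or -1.71 (adjusted p = 0.0323) without the 4 mice. Against vehicle without HCC the difference was -0.17 (limma adjusted p = 0.837) and against sulindac -0.21 (limma adjusted p = 0.79). Rhbg, an ammonia transporter of hepatocytes around the central vein, lay between 4.80 and 5.12 in drug mice and between 5.97 and 6.50 in vehicle mice with HCC, a difference of -1.17 (SE 0.239, limma adjusted p = 0.0217). Against vehicle without HCC it was -0.27 (limma adjusted p = 0.667) and against sulindac -0.09 (limma adjusted p = 0.93). Rhbg was the 1 gene of 12 pericentral markers to pass, and their median was 0.10, and 0.04 without the 4 mice. Tlr12, a Toll-like receptor that senses profilin of parasites, fell by 1.15 (SE 0.234, limma adjusted p = 0.0217) and differed by -0.53 (limma adjusted p = 0.271) from vehicle without HCC. The latter mice were not all near the drug mice, which lay between 4.85 and 5.39. Veh_low_1810, Veh_low_1825 and Veh_low_2091 were above them at 6.36, 6.16 and 5.87, and Veh_low_794 and Veh_low_1819 were at 5.10 and 5.00. The differences from vehicle with HCC without the 4 mice were -1.26 for Rhbg (limma adjusted p = 0.148) and -1.12 for Tlr12 (limma adjusted p = 0.194). For Robo1, Rhbg and Tlr12 a difference was thus detected against vehicle mice with HCC and not against those without HCC. Without Veh_high_1831 or Veh_high_2088 none of the 3 passed (adjusted p at most 0.0946).

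For some genes the drug mice lay at or toward the levels of the sulindac mice. Wdfy1, an endosomal adaptor, was at 7.62 in AspClo_58, 7.85 in AspClo_61 and 7.63 in AspClo_64, at 6.45 in AspClo_63 and 6.32 in AspClo_62, and at 5.04 in AspClo_60. Vehicle mice with HCC lay between 5.07 and 5.70 and sulindac mice between 7.50 and 8.04, so that AspClo_60 was at the vehicle level, 3 mice at the sulindac level and 2 between them. The difference was 1.48 (SE 0.32, limma adjusted p = 0.0284), and 0.34 (adjusted p = 0.651) without the 4 mice of the female pattern. Nnt, the mitochondrial transhydrogenase that makes NADPH and part of which is deleted in the C57BL/6J substrain, was at 10.92, 10.81, 10.66 and 10.65 in AspClo_58, AspClo_61, AspClo_63 and AspClo_64, and at 9.70 in AspClo_60 and 9.92 in AspClo_62. Vehicle mice with HCC lay between 9.68 and 9.81 and sulindac mice between 10.55 and 10.87. The 4 drug mice with high Xist were thus also the 4 at the sulindac level of Nnt, although all sulindac mice had low Xist. The difference for Nnt was 0.67 (SE 0.182, limma adjusted p = 0.0705) and did not pass. Whether the drug mice differ in substrain or cohort was not tested, since the labels give neither.

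Slc25a37, which imports iron into mitochondria, was at 7.98 in AspClo_58, 8.11 in AspClo_60, 8.21 in AspClo_61, 8.94 in AspClo_62, 8.90 in AspClo_63 and 8.53 in AspClo_64. It lay between 9.09 and 9.49 in vehicle mice with HCC and between 8.20 and 8.61 in sulindac mice. No drug mouse reached the vehicle range, and the difference was -0.86 (SE 0.15, limma adjusted p = 0.00954) against vehicle with HCC and 0.05 (limma adjusted p = 0.938) against sulindac. Entpd4, a nucleotidase of the Golgi apparatus and lysosome, lay between 5.93 and 6.72 in drug mice, with AspClo_62 at 6.64 and AspClo_63 at 6.72, and between 6.88 and 7.27 in vehicle mice. It fell by 0.78 (SE 0.136, limma adjusted p = 0.00954) and differed by 0.02 (limma adjusted p = 0.978) from sulindac. AspClo_62 and AspClo_63 were the drug mice nearest to the vehicle mice for both genes. Without the 4 mice of the female pattern the differences were -0.78 for Slc25a37 (adjusted p = 0.0631) and -0.72 for Entpd4 (adjusted p = 0.0622), and without Veh_high_1831 the adjusted p was 0.0514 and 0.0552. For both genes too, a difference of substrain or cohort cannot be told apart from treatment and was not tested, since the labels give neither.

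Dleu2, a long RNA that hosts the miR-15a and miR-16-1 hairpins, was higher on average in drug mice than in both vehicle groups and in sulindac mice. It was between 7.15 in AspClo_62 and 8.22 in AspClo_58 (median 7.92), with 7.88 in AspClo_60, and at 6.86, 6.53, 6.33 and 6.12 in vehicle mice with HCC. Drug mice did not overlap the vehicle mice with HCC, but Veh_low_794, a vehicle mouse without HCC, was at 7.43, above AspClo_62. The difference was 1.37 (SE 0.235, limma adjusted p = 0.00875) against vehicle with HCC, 1.57 (limma adjusted p = 9.43e-05) against sulindac and 1.22 (limma adjusted p = 0.00471) against vehicle without HCC. All 3 of its probe sets were higher in drug mice. Of the 157 genes that passed, 82 had several probe sets, and for 61 of these all went in the direction of the call. Among the named genes, Slc25a37 and Plekha1 had 2 of 3 in that direction, St3gal6 4 of 5 and Entpd5 5 of 6. For St3gal6 the difference was 0.69 (limma adjusted p = 0.0188) with the mean of all its probe sets. The difference of Dleu2 was 1.06 (adjusted p = 0.205) without the 4 mice, and the adjusted p was 0.0548 without Veh_high_2088. Qpct, a glutaminyl cyclase that modifies secreted peptides, was between 7.37 and 8.22 in drug mice and between 6.38 and 7.06 in vehicle mice, a difference of 1.10 (SE 0.184, limma adjusted p = 0.00856). AspClo_60 was at 7.72 and AspClo_62 at 7.37. Qpct was chosen after its values were seen.

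**Figure D4:**
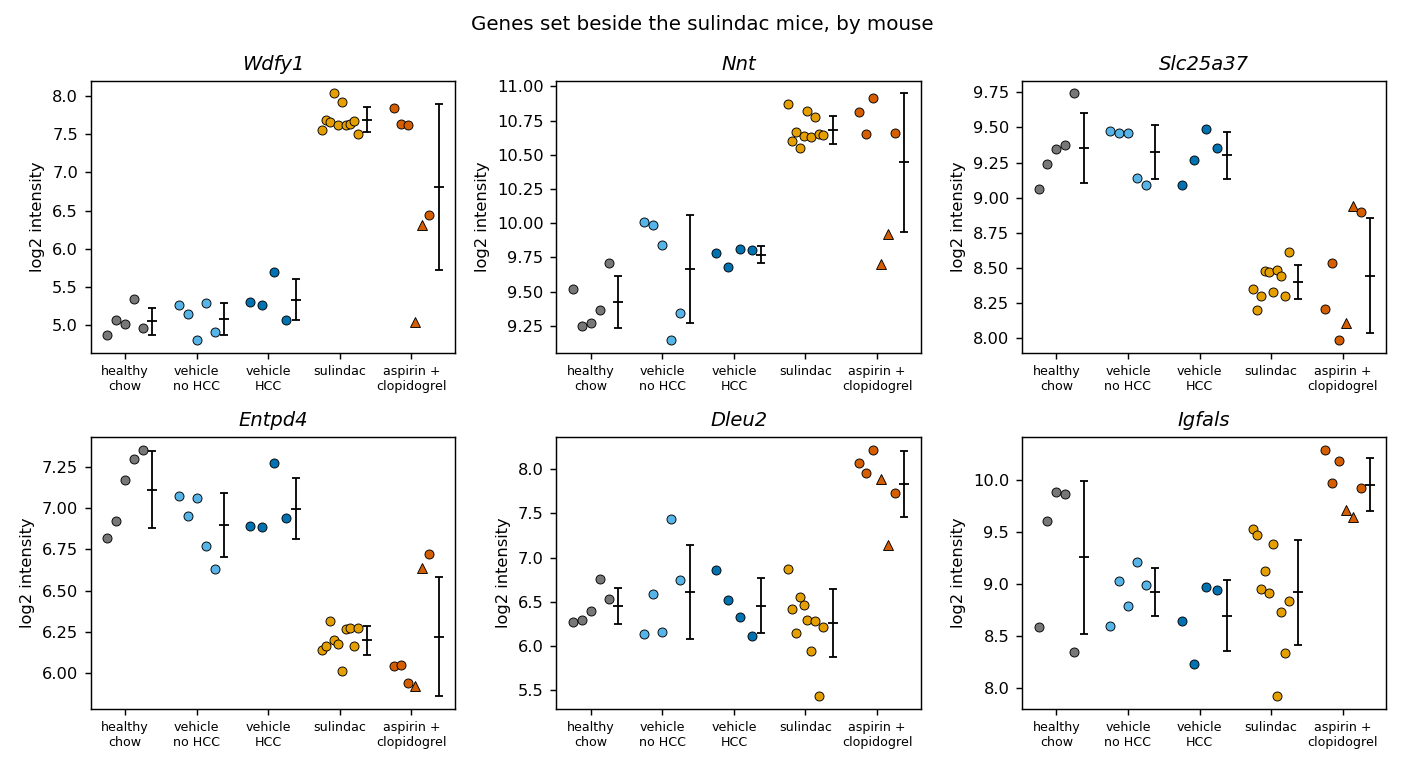
Log2 intensity of 6 genes in every mouse of the 5 groups, with the group mean ± SD and triangles for AspClo_60 and AspClo_62. Drug mice spread between the vehicle and sulindac levels for Wdfy1 (5.04 to 7.85) and Nnt (9.70 to 10.92), and lay above all vehicle mice with HCC and all sulindac mice for Dleu2 and Igfals.

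Other genes that rose act in uptake, glycan synthesis and fatty acid breakdown. Slco1a4, a sinusoidal uptake transporter of organic anions and bile acids, was between 9.34 in AspClo_62 and 10.83 in AspClo_58 (median 10.21), and between 8.48 and 8.89 in vehicle mice, without overlap (difference 1.53, SE 0.365, limma adjusted p = 0.0424). Its difference was 0.93 (limma adjusted p = 0.521) without the 4 mice. It was the 1 gene of 24 in the bile acid list that passed, with a median of 0.07, and of 0.17 without the 4 mice. St3gal6, a sialyltransferase, was at 4.77 in AspClo_60 and 5.18 in AspClo_62, near the vehicle range of 4.54 to 4.96, and between 6.78 and 7.46 in the other drug mice (difference 1.65, SE 0.335, limma adjusted p = 0.0217). Eci3, a peroxisomal enoyl-CoA isomerase, was at 4.54 and 4.51 in AspClo_60 and AspClo_62, within the vehicle range, and between 5.88 and 7.89 in the others (difference 1.66, SE 0.381, limma adjusted p = 0.0361). St3gal6 and Eci3 thus followed the mice with high Xist. Acadl, the long-chain acyl-CoA dehydrogenase of mitochondria, showed a small increase in all 6 drug mice, from 11.50 to 11.56 in vehicle mice to 11.61 to 11.86, a difference of 0.22 (SE 0.046, limma adjusted p = 0.0218), or 0.29 (adjusted p = 0.0416) without the 4 mice. It was the 1 gene of 25 in the list of PPAR-alpha and fatty acid oxidation that passed, and 13 of the 25 had a positive difference, with a median of 0.00. Without the 4 mice 22 of the 25 were positive, with a median of 0.23. The calls of these 4 genes ended without 1 of several single mice, among them Veh_high_1831 and Veh_high_2088 for each (adjusted p at most 0.109).

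No difference in RNA was detected for the measured drug targets. Ptgs2, the inducible cyclooxygenase that aspirin acetylates, was between 4.23 and 4.37 in drug mice and between 4.21 and 4.34 in vehicle mice, a difference of 0.01 (SE 0.0418, limma adjusted p = 0.967). P2ry12 was between 4.40 and 4.87 in drug mice and between 4.33 and 4.68 in vehicle mice, a difference of 0.14 (SE 0.132, limma adjusted p = 0.703). Both genes lay below the median gene mean of 4.90, and Ptgs1, the constitutive cyclooxygenase, is not analysed here. Of 22 platelet genes, none passed and none had an unadjusted p under 0.05, with a median of 0.03, and of -0.04 without the 4 mice. The mean level of the platelet list was between 4.74 and 5.24 in drug mice and between 4.79 and 4.96 in vehicle mice. Of 25 prostanoid genes, none passed, and 3 had an unadjusted p under 0.05, all higher. Their median was 0.04, and -0.01 without the 4 mice.

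Of 21 genes of purine signalling, which act on ADP and ATP, Entpd4 and Entpd5 fell and none rose past the threshold. For Entpd4 the limit of substrain or cohort given above holds. The median was 0.05, and 0.00 without the 4 mice of the female pattern. Entpd5, a nucleotidase of the endoplasmic reticulum, fell by 0.50 (SE 0.115, limma adjusted p = 0.0361). AspClo_62 was at 10.79, within the vehicle range of 10.70 to 11.20. The difference was -0.26 (limma adjusted p = 0.574) without the 4 mice. Nt5e (CD73), which makes adenosine from AMP, was between 8.27 and 9.22 in AspClo_58, AspClo_61, AspClo_63 and AspClo_64, at 6.27 in AspClo_60 and 6.64 in AspClo_62, and between 5.19 and 7.32 in vehicle mice (difference 1.78, SE 0.561, limma adjusted p = 0.127). Of 28 coagulation genes, 21 had a positive difference, 10 had an unadjusted p under 0.05, all higher, and F13b, the carrier subunit of factor XIII, passed. Over all 17097 genes, 8996 differences were positive, and 7.31% were higher at that p. F13b was between 11.33 and 11.54 in drug mice and between 10.87 and 11.28 in vehicle mice, without overlap (difference 0.33, SE 0.0728, limma adjusted p = 0.0311). Its difference was 0.28 (limma adjusted p = 0.319) without the 4 mice. The median of the list was 0.09, and 0.07 without the 4 mice. F7, the factor that starts coagulation with tissue factor, differed by 0.71 (limma adjusted p = 0.0957). F2r, the thrombin receptor PAR1, was between 8.97 and 9.66 in drug mice and between 10.12 and 10.62 in vehicle mice, a decrease of 0.95 (SE 0.224, limma adjusted p = 0.041). AspClo_60 was at 9.49 and AspClo_62 at 9.66. Nt5e, F7 and F2r were chosen after their values were seen.

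Of 26 genes that metabolise clopidogrel or aspirin, Ces1c was the 1 that passed. Carboxylesterases of this family hydrolyse both drugs, and Ces1c is the form secreted into mouse plasma. It was between 12.56 in AspClo_62 and 12.80 in AspClo_61 and between 12.42 and 12.50 in vehicle mice, without overlap, a difference of 0.25 (SE 0.0571, limma adjusted p = 0.0361), or 0.15 (adjusted p = 0.487) without the 4 mice. Of the list, 18 had a positive difference, with a median of 0.12 that stayed at 0.12 without the 4 mice. In the list of CAR and PXR targets, nuclear receptors of foreign compounds, 14 of 19 had a positive difference and none passed, with a median of 0.36, and of 0.24 without the 4 mice. The latter fit called Gstm3, a glutathione transferase that the NRF2 list also holds, lower (difference -3.21, SE 0.652, limma adjusted p = 0.0435). Of 33 genes of the NRF2 response to oxidants and of the glutathione system, 26 had a negative difference, 14 were lower and 1 higher at an unadjusted p of 0.05, and Gpx4, which reduces lipid hydroperoxides, passed. Over all 17097 genes, 8101 differences were negative, and 5.54% were lower at that p. Gpx4 was between 11.14 and 11.62 in drug mice and between 11.81 and 11.92 in vehicle mice (difference -0.53, SE 0.131, limma adjusted p = 0.0449). Its difference was -0.38 (limma adjusted p = 0.449) without the 4 mice. The mean level of the list was between 9.43 and 9.88 in drug mice, with 9.43 in AspClo_60 and 9.58 in AspClo_62, and between 9.86 and 10.18 in vehicle mice. Its median was -0.25, and -0.20 without the 4 mice, where 14 of the 33 were positive. Srxn1, which repairs peroxiredoxins, was between 6.35 and 7.95 in drug mice and between 8.25 and 9.03 in vehicle mice without passing (difference -1.58, limma adjusted p = 0.142). Outside the NRF2 list, Aox1, an aldehyde oxidase, fell by 0.83 (SE 0.174, limma adjusted p = 0.0243). The difference of Aox1 without the 4 mice is not shown, and whether sex contributed to it was not tested here. Gstm3, Srxn1 and Aox1 were chosen after their values were seen.

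Most genes of RNA processing and chromatin had small positive differences. Of 45 measured, 38 were positive and 17 had an unadjusted p under 0.05, all higher (against 7.31% of all genes). Their median was 0.18, and 0.21 without the 4 mice. The member that passed was Wrnip1, an ATPase that acts at stalled replication forks. It was between 8.13 and 8.63 in drug mice and at 8.28, 8.01, 7.38 and 7.58 in vehicle mice, so that the groups overlapped (difference 0.55, SE 0.133, limma adjusted p = 0.0425). It did not differ past the threshold from vehicle without HCC (-0.20, limma adjusted p = 0.519), and its difference was 0.21 (adjusted p = 0.663) without Veh_high_1831 and Veh_high_2088. Outside that list, Srrm1, a splicing coactivator, rose by 0.30 (SE 0.0611, limma adjusted p = 0.0217), Ddx3x, an RNA helicase gene on the X chromosome, by 0.29 (SE 0.0597, limma adjusted p = 0.0217), and Hnrnpc, a binder of nascent transcripts, by 0.25 (SE 0.0585, limma adjusted p = 0.0377). Their differences without the 4 mice of the female pattern are not shown. Whether sex contributed to the differences of these genes, the X-linked Ddx3x included, was not tested here. These 3 and Hspa8 were chosen after their values were seen. Of 16 heat shock genes, 15 had a positive difference and none passed, with a median of 0.25. Without the 4 mice the median was 0.57, and Hspa8, a chaperone that cells make at all times, passed (difference 0.42, SE 0.0727, limma adjusted p = 0.0179). Their mean level was between 9.30 and 10.26 in drug mice, highest in AspClo_62, and between 9.28 and 9.36 in vehicle mice.

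In liver tissue, fewer cells of a type and less RNA per cell cannot be told apart. All 16 measured Kupffer cell markers had a positive difference, with a median of 0.27, and none passed. Their mean level was between 7.59 and 8.80 in drug mice, with 7.59 in AspClo_60 and 7.98 in AspClo_62, and between 7.26 and 8.38 in vehicle mice. Without the 4 mice the median was 0.05, and 8 of the 16 were positive. Cd163, a scavenger receptor for haemoglobin, was between 5.42 and 6.77 in drug mice and between 4.09 and 4.56 in vehicle mice (difference 1.52, SE 0.476, limma adjusted p = 0.126). Fcna, a ficolin that starts the lectin pathway of complement and is made by macrophages, was between 9.29 and 10.23 in drug mice and at 9.21, 7.59, 7.71 and 8.58 in vehicle mice. It rose by 1.64 (SE 0.379, limma adjusted p = 0.0361), with AspClo_60 and Veh_high_798 the closest mice, and differed by 0.46 (limma adjusted p = 0.646) from vehicle without HCC. Its difference from vehicle with HCC was 1.25 (limma adjusted p = 0.403) without the 4 mice. Of 23 endothelial markers, 18 had a positive difference, 10 of them with an unadjusted p under 0.05 (against 7.31% of all genes higher), and none passed. Their median was 0.20, and 0.03 without the 4 mice, where 12 of the 23 were positive.

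Tgfbr2, the type II receptor through which TGF-beta acts, was at 8.30 in AspClo_58, 7.61 in AspClo_60, 8.30 in AspClo_61, 7.99 in AspClo_62, 7.94 in AspClo_63 and 8.18 in AspClo_64, and at 8.84, 8.92, 9.37 and 9.39 in vehicle mice. Every drug mouse was below every vehicle mouse. Tgfbr2 fell by 1.07 (SE 0.27, limma adjusted p = 0.0496), close to the threshold, and the call ended without any 1 of the 10 mice (adjusted p at most 0.162). The difference was -1.33 (adjusted p = 0.177) without the 4 mice. It was the 1 gene of 17 in the TGF-beta list that passed (median 0.02, and -0.09 without the 4 mice), and the ligand Tgfb1 differed by 0.09 (limma adjusted p = 0.619). Of 35 fibrosis genes, 30 had a negative difference and none passed, with a median of -0.15, and of -0.23 without the 4 mice. Col1a1, a chain of collagen I, was between 4.18 and 4.33 in drug mice and between 4.45 and 4.59 in vehicle mice, below the median gene mean (difference -0.25, limma adjusted p = 0.427). Of 14 MHC class II genes, which present antigen to helper T cells, 13 had a negative difference and none passed, with a median of -0.28, and without the 4 mice the median was -0.52 with none positive. H2-Eb1 was between 7.86 and 9.06 in drug mice and between 9.32 and 10.39 in vehicle mice (difference -0.98, limma adjusted p = 0.369). The lists of macrophages and monocytes (21 genes), T and NK cells (29) and type I interferon response (31) had no gene that passed, with medians of -0.08, -0.04 and -0.05. Their medians were -0.58, -0.07 and -0.46 without the 4 mice. Cd163, Tgfb1, Col1a1 and H2-Eb1 were chosen after their values were seen.

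Genes of lipid synthesis varied among the drug mice. Of 20 genes of de novo lipogenesis, 18 had a negative difference, and of 19 of cholesterol synthesis, 16, but none passed in either list. The median was -0.36 for lipogenesis and -0.50 for cholesterol synthesis, and -0.83 and -0.87 without the 4 mice, where Tmem97 of the lipogenesis list, which regulates cholesterol transport, was lower (difference -0.86, SE 0.135, limma adjusted p = 0.00827). The mean level of lipogenesis genes was 9.62 in AspClo_60 and 9.65 in AspClo_62, below all vehicle mice (10.34 to 10.79), and reached 10.93 in another drug mouse. Of 22 complement genes, C9, a part of the membrane attack complex, fell by 0.42 (SE 0.0919, limma adjusted p = 0.0316), from 12.04 to 12.32 in vehicle mice to 11.43 to 11.92, and the median of the list was 0.05, and -0.03 without the 4 mice. In the fit without them C9 differed by -0.34 (limma adjusted p = 0.258). Of 23 iron genes, Slc39a8, an importer of zinc, manganese and iron, rose by 0.46 (SE 0.105, limma adjusted p = 0.0361) and Slc25a37 fell, with a list median of 0.01, and of -0.06 without the 4 mice. In the fit without them Slc39a8 differed by 0.44 (limma adjusted p = 0.222). For Slc25a37 the limit of substrain or cohort given above holds. Of 8 red blood cell genes, 7 had a positive difference and none passed, with a median of 0.27, and of 0.19 without the 4 mice. Hba-a1, a haemoglobin alpha chain, was between 12.57 and 12.98 in drug mice, between 11.02 and 12.41 in vehicle mice and between 12.42 and 12.92 in sulindac mice (difference from vehicle 1.02, limma adjusted p = 0.0578). Hba-a1 was chosen after its values were seen.

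**Figure D5:**
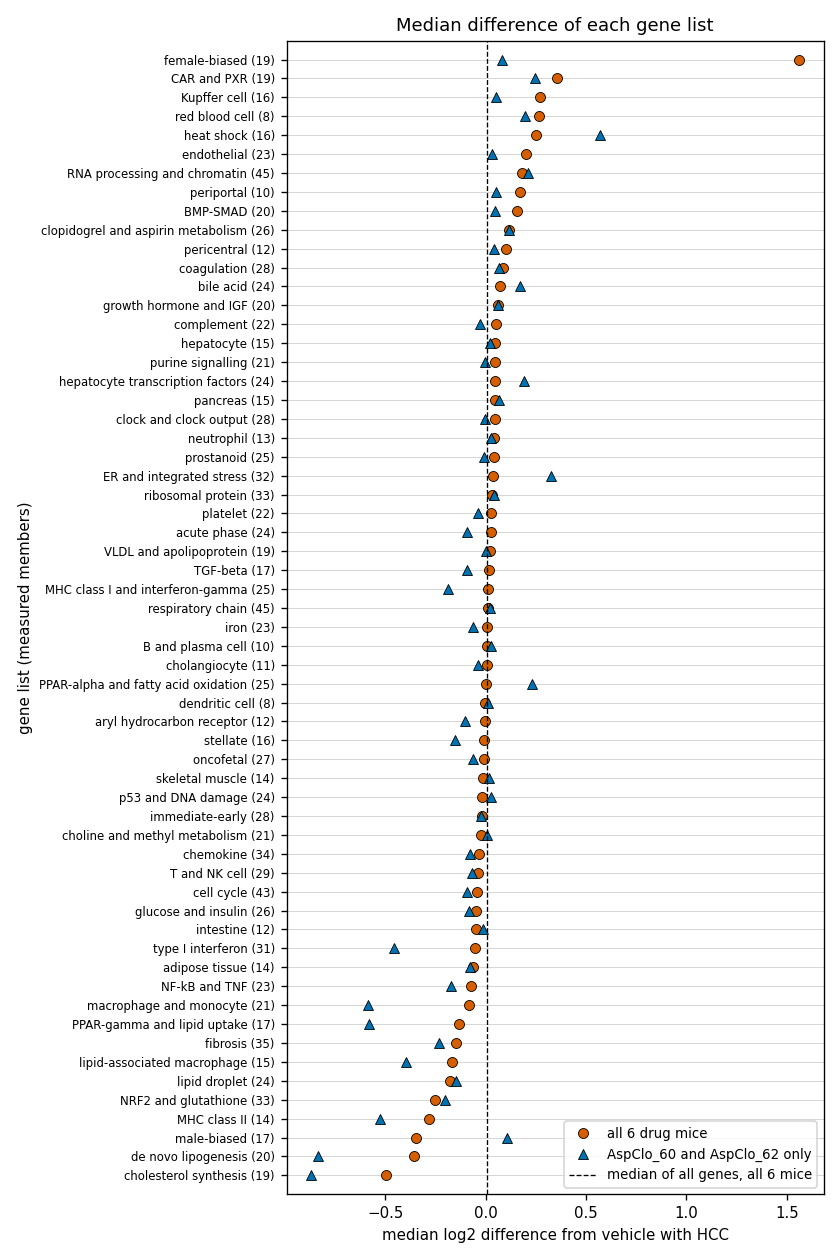
Median log2 difference of the measured members of each gene list between drug mice and vehicle mice with HCC, for all 6 drug mice (circles) and for AspClo_60 and AspClo_62 alone (triangles), with the median over all genes as the broken line. The female-biased list stood at 1.56 with all 6 mice and at 0.08 with the 2, whereas cholesterol synthesis stood at -0.50 and -0.87.

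The vehicle mice differed among themselves in a clock gene. Dbp, a clock output factor that swings widely over the day, was at 4.60 in Veh_high_798 and 4.37 in Veh_high_1770 but at 10.00 in Veh_high_1831 and 10.20 in Veh_high_2088, and between 5.30 and 10.20 in drug mice. The difference was 0.67 (SE 1.01, limma adjusted p = 0.839). Cry1, a clock repressor, was between 5.58 and 7.19 in drug mice and between 5.51 and 6.76 in vehicle mice (difference 0.15, limma adjusted p = 0.91), and none of 28 clock genes passed, with a median of 0.05, and of -0.01 without the 4 mice. Without Veh_high_1831 and Veh_high_2088, 4 genes passed over all 17097, and none of the 44 named genes did. Without Veh_high_798 and Veh_high_1770, 169 genes passed, and 17 of the 44 did. Collection time is not in the labels, and its part in the results was not tested. Id1, a target of BMP signalling, was at 8.38 in AspClo_58, 6.40 in AspClo_60, 8.13 in AspClo_61, 6.25 in AspClo_62, 7.56 in AspClo_63 and 6.78 in AspClo_64, and between 5.96 and 6.79 in vehicle mice (difference 0.96, SE 0.461, limma adjusted p = 0.377). Of 20 BMP-SMAD genes, 15 had a positive difference and none passed. Their median was 0.16, and 0.05 without the 4 mice, where Hjv, a BMP co-receptor that the iron list also holds, was lower (difference -1.08, SE 0.204, limma adjusted p = 0.0323).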

How the data were processed

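Liver RNA of 30 mice was measured on 1-colour Affymetrix MG-430 arrays, 1 per mouse. Per the submitters' processing notes and the design text, the authors summarised and quantile-normalized the arrays with RMA (version not stated) in ExpressionFileCreator and deposited linear intensity per probe set. Background signal compresses differences near the lower end of the scale, where the minimum per array was 13.8 to 14.8. The number of arrays limits the precision.

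Here log2 was taken, and 17097 genes were each represented by their brightest probe set (highest mean of 30 arrays, 1 symbol), from 45141 probe sets of which 104 are controls, 28898 have 1 symbol, 551 several and 15588 none. Through Entrez identifiers 28689 matched the RefSeq table and 209 did not. No gene was removed for low intensity. limma 3.58.1 in R 4.3.3 fitted 5 group means to all 30 arrays (25 residual and 2.37 prior degrees of freedom), with Benjamini-Hochberg adjustment over all genes and a threshold of 0.05. On simulated data with 200 changed genes the fit recovered 89.6% of changes of 1 and 53.2% of changes of 0.5 on the log2 scale. Of the genes called there, 6.1% and 5.3% were false, in that order. These shares describe the simulated data only. Recovery in the real mice, where the drug group was split by sex-gene pattern and dim genes were kept, was not tested and may be lower. Vehicle mice number 4 in the design text but 9 in the labels, which were used. Nothing in the labels pairs mice.

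Named genes are up to 15 higher and 15 lower with the largest difference among those past the threshold whose brighter group reaches the median gene mean of 4.90, up to 4 members of each gene list past it, and Ptgs2, P2ry12, Dbp, Cry1, Id1, Wdfy1 and Nnt. The comparison and the lists, written from general knowledge, were chosen with earlier results of these data known. Alternatives were another set of arrays in the fit, scaling, probe set rule, filter, spread estimate, array weights and leaving out mice.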

Additional observations from a re-analysis of the deposited data

Results flagged for a closer look

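In 8 of the 100 gene and group combinations of the named genes, 1 mouse lay far from the rest of its group, and chance alone gives about 1 in 20. Veh_high_798 stood above the other vehicle mice with HCC for 2 genes that were high in the 4 drug mice of the female pattern: Sult2a2 was at 5.489 against 4.215 to 4.357, and Xist at 5.026 against 4.611 to 4.680. The same mouse had Ptgs2 at 4.207, below 4.319 to 4.337. Veh_high_1831 had Abcd2 at 4.803, below 6.233 to 6.315, Rarres1 at 10.214, above 9.326 to 9.384, and Entpd4 at 7.273, above 6.884 to 6.938. Among drug mice, AspClo_60 had Rhbg at 4.797, below 5.040 to 5.116, and AspClo_63 had Vldlr at 5.612, above 4.955 to 5.181. All values are log2 intensity.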

How the results depend on the processing

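The count of 157 genes became 74 with only the 10 arrays in the fit (30 shared with the 157) and 283 with array weights. Without Hlth_1798, Hlth_1807, Veh_low_794 and Veh_low_1819, 4 arrays outside the 2 compared groups, the count was 454, and it included all 157. It stayed within 1.5 times under median centring (141), repeated quantile normalization (173), the mean of all probe sets (153), a filter on dim genes (204) and a trended, robust spread (109). Leaving out 1 mouse gave 12 to 248. Without both Veh_high_1831 and Veh_high_2088 it was 4. Alternatives chosen after seeing the data gave 24 without the 4 drug mice with high Xist, 411 without the 2 with low Xist and 169 without Veh_high_798 and Veh_high_1770. Without the 4 mice the differences of Sult2a2 (-0.159), Xist (-0.067), Cyp3a41a (-0.294) and Cyp3a16 (-0.059) reversed, none past the threshold, and no other named gene that passed reversed. The causes of the other shifts were not tested. Of 44 named genes that passed, 14 kept the call with the 10 arrays alone and 41 under median centring. No paired analysis was possible because the groups share no replicate numbers. With 4 and 6 mice, differences near 0.5 were often missed in the simulated data. In the real mice some larger differences, such as those of Mogat1 and Srxn1, did not pass. Levels near the lower end of the arrays understate differences.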
